A study of Mus musculus with 4 samples.

Results

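The genes described here are 39 listed genes of the sarcomere and of striated muscle, measured in tumors and non-tumor regions of the lungs of urethane-treated mice that lack or carry Nrf2, the transcription factor of the oxidative stress response that the gene Nfe2l2 encodes. The list was drawn up by gene function, and its members were found on the array through the accession that each probe carries. Of the 39 genes, 37 had a probe (none was matched for Smpx or Xirp1), and these 37 carried 56 of the 41170 probes of 32300 genes and transcripts measured in all. By the scanner software's own call, 35 members were brighter than their background on 1 array or more, through 45 probes. Casq1, the calsequestrin of fast skeletal muscle, and Myl2, the regulatory light chain of ventricular myosin, were not well above background on any array. By where muscle biology places them, 19 of the 35 are cardiac genes, 4 are genes of skeletal muscle (Acta1, Myl1, Mylpf and Tnnt3) and 12 are used by both muscles. Some genes counted as cardiac, such as Myh7, Myl3, Myoz2, Pln and Tnnc1, serve slow skeletal muscle too. The figures label the 4 as fast skeletal, which is too narrow for Acta1.

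A total of 4 RNA pools was hybridised in a single dye, each to an array of its own. They came from Nrf2-/- tumors, Nrf2+/+ tumors, Nrf2-/- non-tumor lung and Nrf2+/+ non-tumor lung. All mice were female, of the ICR strain and 6 months old, and all had received 1 g of urethane per kg of body weight by intraperitoneal injection, so no untreated lung enters any comparison. Tissue was taken 16 weeks later from 8 mice of each genotype and pooled. Tumors measured 1.0 to 1.5 mm across, were cut from the lung surface and were cleared of surrounding tissue under a stereomicroscope. With 1 pool per group the spread between mice was not measured, and a difference between a pair of pools has no replicate check and no test. The Nrf2+/+ non-tumor array was hybridised on slide 1 and the other 3 arrays on slide 2. The Nrf2-/- tumor comparison and the genotype comparison in tumors therefore lie within slide 2, while in the Nrf2+/+ tumor comparison and the genotype comparison in non-tumor lung slide and group cannot be told apart.

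Striated muscle contracts through sarcomeres, in which thick filaments of myosin pull on thin filaments of actin between Z-discs, and titin spans from the Z-disc to the M-band. Calcium released from the sarcoplasmic reticulum through the ryanodine receptor binds the troponin complex on the thin filament and starts the cycle, and the reticulum's calcium pump ends it. The heart, slow muscle and fast muscle build the same machine from partly different gene copies, so that the copies tell the muscles apart. In mice, cardiac muscle is also known outside the heart in the wall of the pulmonary veins, where it reaches into the lung.

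The software called 54.2% to 63.5% of an array's spots well above background, fewer on both tumor arrays, and found 0 saturated. Nfe2l2 itself read 6.94 intensity units in Nrf2-/- tumors against 7478 in Nrf2+/+ tumors, and 5.13 in Nrf2-/- non-tumor lung against 7913 in Nrf2+/+ non-tumor lung. It was not well above background in either Nrf2-/- pool, which puts it at least 268-fold lower among tumors and at least 376-fold lower among non-tumor pools. Levels below are the array's processed signals in intensity units, before scaling. The 75th percentile was 584 and 555 in Nrf2-/- and Nrf2+/+ tumors, against 742 and 760 in Nrf2-/- and Nrf2+/+ non-tumor lung. A gene's level can therefore be lower in tumor while its scaled difference is above 0. Differences are on the log2 scale, after each array was scaled to the 75th percentile of its own spots, so that 1 stands for 2-fold. The scanner software's own error of such a difference had a median of 0.21 over the members, and covers the spots of an array but not the mice. Where a gene was not well above background on an array, its fold is given as a bound, "at least N-fold", set against the dimmest level that was well above background there. Signals of different probes cannot be set against each other.

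The letters before the start site of a few members show how the copies differ in sequence. RefSeq's windows for GRCm38.p6, from 250 bases before to 50 bases after the start, hold 33 of the 39 genes. The windows of the cardiac actin gene Actc1, the atrial light chain gene Myl7 and the skeletal actin gene Acta1 are shown because each holds a CArG box, the site bound by serum response factor that is known from muscle promoters. The windows of Myh6 and Myh7, the neighbouring genes of alpha and beta cardiac myosin heavy chain, were added after their values were seen. Capitals mark every CArG box and every M-CAT match (CATTCC, the site of TEAD factors), read on both strands.
Actc1, chr2:114052826-114053125, minus strand: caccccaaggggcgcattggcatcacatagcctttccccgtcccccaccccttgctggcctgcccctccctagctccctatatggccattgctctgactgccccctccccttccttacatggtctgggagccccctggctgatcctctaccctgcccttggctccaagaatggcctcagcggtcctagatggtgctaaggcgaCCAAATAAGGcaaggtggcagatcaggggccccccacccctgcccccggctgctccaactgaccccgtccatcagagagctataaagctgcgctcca
Myl7, chr11:5898733-5899032, minus strand: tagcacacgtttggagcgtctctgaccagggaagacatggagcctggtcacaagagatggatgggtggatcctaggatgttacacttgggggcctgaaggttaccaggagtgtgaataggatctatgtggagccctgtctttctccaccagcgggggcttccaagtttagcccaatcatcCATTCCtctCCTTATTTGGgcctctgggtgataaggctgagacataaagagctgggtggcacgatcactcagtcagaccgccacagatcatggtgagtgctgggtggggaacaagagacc
Acta1, chr8:123894726-123895025, minus strand: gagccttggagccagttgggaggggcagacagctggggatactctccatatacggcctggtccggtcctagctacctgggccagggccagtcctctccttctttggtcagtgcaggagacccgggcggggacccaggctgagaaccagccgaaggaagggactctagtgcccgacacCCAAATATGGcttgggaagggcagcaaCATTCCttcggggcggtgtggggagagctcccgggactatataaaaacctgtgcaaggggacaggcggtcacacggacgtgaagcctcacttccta
Myh6, chr14:54966558-54966857, minus strand: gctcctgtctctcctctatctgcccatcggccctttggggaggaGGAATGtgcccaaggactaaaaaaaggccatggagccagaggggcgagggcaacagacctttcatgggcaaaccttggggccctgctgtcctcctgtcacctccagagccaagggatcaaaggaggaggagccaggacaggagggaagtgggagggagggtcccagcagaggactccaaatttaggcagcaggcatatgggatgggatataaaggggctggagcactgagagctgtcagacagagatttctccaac
Myh7, chr14:54994577-54994876, minus strand: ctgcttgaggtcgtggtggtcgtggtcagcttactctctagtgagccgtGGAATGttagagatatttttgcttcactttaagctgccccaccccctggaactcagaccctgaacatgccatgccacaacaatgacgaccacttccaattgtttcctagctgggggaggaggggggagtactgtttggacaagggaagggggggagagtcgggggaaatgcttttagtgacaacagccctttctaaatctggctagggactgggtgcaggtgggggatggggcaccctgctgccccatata
The CArG box ends 37 bases before the start site in Actc1, 51 in Myl7 and 63 in Acta1. The windows of Myh6 and Myh7 hold no exact match to such a box, and stretches that only resemble a box were not counted. In Myl7 and Acta1 an M-CAT match lies beside it, while in Myh6 and Myh7 the M-CAT match reads on the opposite strand and lies 200 and 195 bases before the start. Among all 32851 windows, 1.63% hold a CArG box and 14.7% an M-CAT match. Counted by gene, with a match in any window of the gene, the shares over 27025 genes are 1.81% and 16.6%. Among the 33 members with a window, counted the same way, 7 hold a CArG box (Acta1, Actc1, Ldb3, Myl3, Myl7, Myom1 and Nebl) and 11 an M-CAT match. A MEF2 site is in the windows of 4 members (Casq2, Mybpc3, Myoz2 and Ttn), in 3.19% of all windows and in 3.70% of all genes. The TATA letters TATAAA are in the windows of 6 members, in 13.6% of all windows and in 15.7% of all genes. A match describes the letters only.

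Most striated muscle genes were several-fold lower in tumors than in non-tumor lung, in both genotypes. In Nrf2-/- mice 30 of the 35 members were at least 2-fold lower in tumor and 1 was at least 2-fold higher, with a median difference of -2.35, where 9.13% of all genes were lower and 5.43% higher. In Nrf2+/+ mice 28 of the 35 were lower and 1 was higher, with a median of -2.70, where 15.3% of all genes were lower and 8.08% higher. In both genotypes at once 28 members were lower, against 6.65% of all genes, and Myh7 alone was higher, against 3.44%. The median over all genes was -0.03 in each genotype. Under normexp background correction the medians of the members were -1.15 in Nrf2-/- and -1.27 in Nrf2+/+ mice, with 22 and 21 of the 35 at least 2-fold lower.

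Part of that count follows from how members enter it. A total of 10 members were well above background in both non-tumor pools and in neither tumor pool (Actn2, Acta1, Casq2, Ckm, Myl1, Myoz2, Pln, Ryr2, Tnnc1 and Trdn), so that they had to be lower in tumor to be counted. Of the 23 members measured well above background on all 4 arrays, 18 were at least 2-fold lower in tumor in both genotypes, against 4.56% of the 16287 genes measured that way. Within Nrf2-/- mice 19 of the 23 members measured on both arrays were lower, with a median of -2.04, against 5.27% of genes and a median of 0.01. Within Nrf2+/+ mice 19 of 25 were lower, with a median of -2.27, against 10.5% of genes and a median of 0.05. With the dim members set at their bounds, the medians over all 35 were -1.85 in Nrf2-/- mice and -2.17 in Nrf2+/+ mice, and 29 and 27 members were at least 2-fold lower. In RNA from whole tissue, fewer muscle cells and less RNA per muscle cell cannot be told apart.

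**Figure D1:**
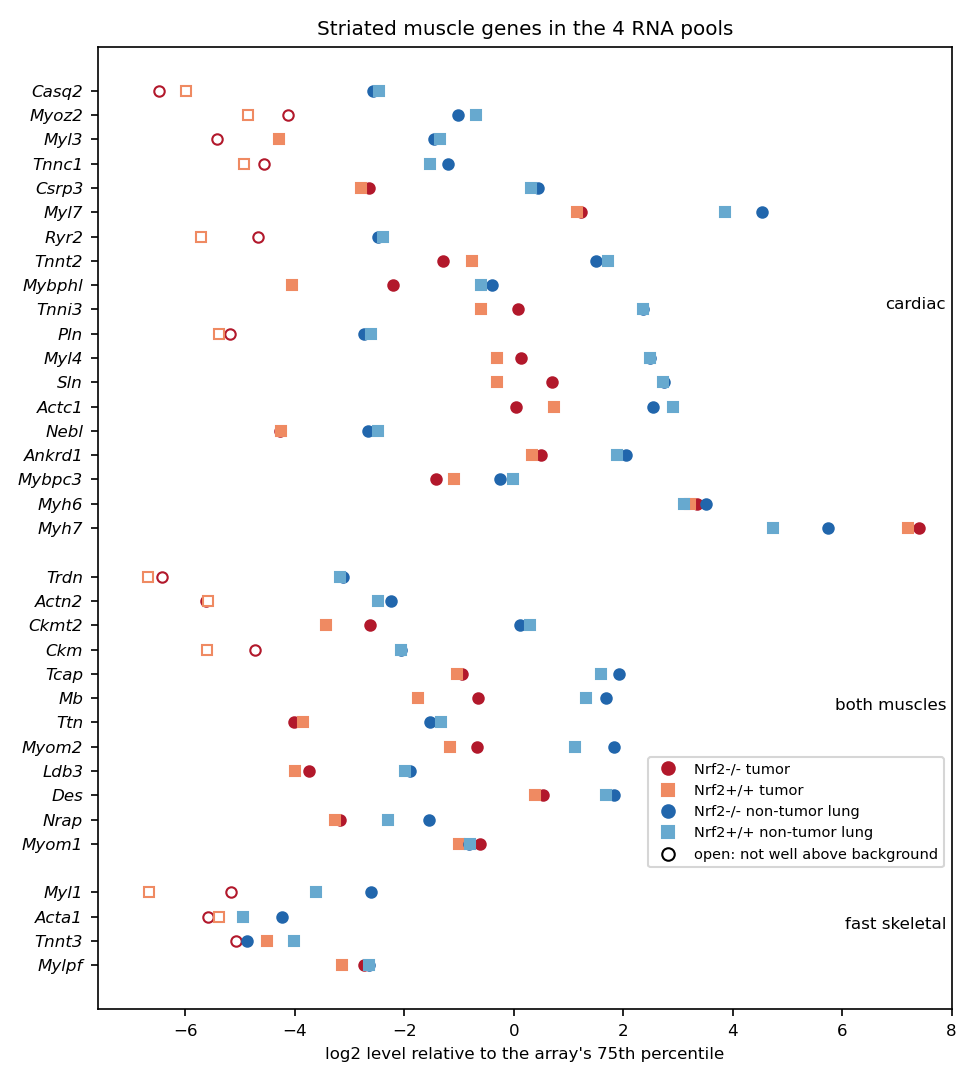
Level of each of the 35 members in the 4 RNA pools, as log2 relative to the array's 75th percentile, 1 point per pool; open symbols were not well above background. Both tumor pools lie left of both non-tumor pools for 31 genes, Myh7 lies right, and the rows are to be read across pools and not against each other.

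Both tumor pools were below both non-tumor pools for 31 of the 35 members, where this held for 33.3% of all genes, and above both for Myh7, where this held for 30.4%. A fit over all 4 arrays with a term for tissue and a term for genotype (limma, 20553 genes, Benjamini-Hochberg adjustment over all of them) left 1 residual degree of freedom and called no gene for tissue at an adjusted p under 0.05, that is 0.00% of genes. The lowest adjusted p among the members was 0.0705, shared by many of them, and their median coefficient for tissue was -2.61. At an unadjusted p under 0.05 the same fit listed 30 of the 35 members and 29.7% of all genes. The count of members called in this fit turned on the scaling, between 0 and 28 of 35. Because the fit takes the genotypes as repeats of the tissue difference, its standard errors and p-values do not measure the spread between mice.

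The markers that define the list behaved alike. Tnnt2, cardiac troponin T, which ties the troponin complex to the thin filament, measured 239 and 329 in Nrf2-/- and Nrf2+/+ tumors, against 2108 and 2505 in Nrf2-/- and Nrf2+/+ non-tumor lung. Its tumor difference was -2.80 in Nrf2-/- mice and -2.48 in Nrf2+/+ mice. Csrp3, the muscle LIM protein of the Z-disc, measured 93.0 and 80.2 in Nrf2-/- and Nrf2+/+ tumors, against 1002 and 947 in the non-tumor pools in the same order. All 4 pools held both RNAs well above background, and the tumor pools did not overlap the non-tumor pools. The tumor difference of Csrp3 was -3.08 in Nrf2-/- mice and -3.11 in Nrf2+/+ mice, with a tissue coefficient of -3.10 ± 0.15 (SE, 4 arrays; limma adjusted p = 0.0705). Ttn, the giant spring titin, measured 36.2 and 38.4 in Nrf2-/- and Nrf2+/+ tumors, against 256 and 301 in the non-tumor pools, and its differences of -2.48 and -2.52 in the Nrf2-/- and Nrf2+/+ mice were nearly equal.

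Among thin filament genes, the cardiac copies were lower in tumors. Actc1 measured 602 in Nrf2-/- tumors and 928 in Nrf2+/+ tumors, against 4334 in Nrf2-/- and 5717 in Nrf2+/+ non-tumor lung. That is a difference of -2.50 in Nrf2-/- mice and -2.17 in Nrf2+/+ mice. Tnni3, cardiac troponin I, which holds actin and myosin apart at low calcium, measured 613 and 365 in Nrf2-/- and Nrf2+/+ tumors, against 3820 and 3919 in non-tumor lung. The tumor pools of both genes lay far below the non-tumor pools, and those of Tnni3 were nearly equal between genotypes in non-tumor lung. Tnnc1, the troponin C of heart and slow muscle and the calcium sensor of the complex, was not well above background in either tumor pool, against 322 and 263 in Nrf2-/- and Nrf2+/+ non-tumor lung. It was at least 8.64-fold lower in Nrf2-/- tumors and at least 8.33-fold lower in Nrf2+/+ tumors.

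Skeletal actin was dim, and whether its tumor difference was unlike that of cardiac actin cannot be told. Acta1 read 12.1 in Nrf2-/- and 13.3 in Nrf2+/+ tumors, not well above background, against 39.3 in Nrf2-/- and 24.7 in Nrf2+/+ non-tumor lung, where it was. The bound for Nrf2-/- mice was only 1.05-fold, and none could be set for Nrf2+/+ mice. Tnnt3, the troponin T of fast muscle, measured 17.2 and 24.5 in Nrf2-/- and Nrf2+/+ tumors, against 25.2 and 46.7 in non-tumor lung, with differences of -0.20 in Nrf2-/- and -0.48 in Nrf2+/+ mice, and the Nrf2-/- tumor reading was not well above background. Under normexp correction the direction of both genes turned in both genotypes. These 2 skeletal muscle genes were thus dim in all pools, and a 2-fold difference was not shown for either.

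Among the light chains of myosin, both atrial copies and the fast muscle copy Myl1 were lower in tumors, while the fast muscle copy Mylpf was not shown to be. Myl7, the atrial regulatory light chain, measured 1376 and 1240 in Nrf2-/- and Nrf2+/+ tumors, against 17135 and 10999 in Nrf2-/- and Nrf2+/+ non-tumor lung, a difference of -3.29 in Nrf2-/- and -2.70 in Nrf2+/+ mice. Myl4, the atrial essential light chain, measured 643 and 450 in Nrf2-/- and Nrf2+/+ tumors, against 4166 and 4275 in non-tumor lung. Both atrial light chains thus stood well above background in tumors too, at a level far below non-tumor lung. The ventricular copies were different from each other: Myl3, the essential chain of ventricle and slow muscle, read 13.6 in Nrf2-/- tumors, not well above background, and 28.5 in Nrf2+/+ tumors, against 269 and 300 in Nrf2-/- and Nrf2+/+ non-tumor lung, while Myl2 was below background in all 4 pools. Myl3 was thus at least 7.21-fold lower in Nrf2-/- tumors, and differed by -2.94 in Nrf2+/+ mice. Of the fast muscle light chains, Mylpf, the regulatory chain, measured 87.7 and 63.3 in Nrf2-/- and Nrf2+/+ tumors, against 119 and 122 in non-tumor lung, with differences of -0.10 in Nrf2-/- and -0.49 in Nrf2+/+ mice, and in Nrf2-/- mice its direction turned under median scaling (0.04) and quantile normalization (0.02). Myl1, the essential chain, was not well above background in either tumor pool, against 121 and 61.7 in Nrf2-/- and Nrf2+/+ non-tumor lung, which makes it at least 3.25-fold lower in Nrf2-/- tumors and at least 1.95-fold lower in Nrf2+/+ tumors.

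The heavy chains differed from the light chains. Myh7, the beta cardiac myosin heavy chain that also serves slow skeletal muscle, measured 98289 in Nrf2-/- tumors and 81325 in Nrf2+/+ tumors, against 39612 in Nrf2-/- and 20346 in Nrf2+/+ non-tumor lung. Both tumor pools were above both non-tumor pools, and the difference was 1.66 in Nrf2-/- mice and 2.45 in Nrf2+/+ mice, with a tissue coefficient of 2.05 ± 0.27 (SE, 4 arrays; limma adjusted p = 0.0716). Its other probe gave differences of 1.32 in Nrf2-/- and 2.07 in Nrf2+/+ mice, so both probes showed the same order of pools. Myh6, the alpha cardiac heavy chain, measured 5922 and 5145 in Nrf2-/- and Nrf2+/+ tumors, against 8467 and 6534 in non-tumor lung, with differences of -0.17 in Nrf2-/- and 0.11 in Nrf2+/+ mice. Its other probe gave 0.33 and 0.57 in the Nrf2-/- and Nrf2+/+ mice. Its direction turned in Nrf2+/+ mice under quantile normalization and under spike-in scaling, and in Nrf2-/- mice when all probes were averaged. The 2 genes are near-identical copies, and how far a probe of Myh6 also reads Myh7 was not tested, so the Myh6 values are uncertain.

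The nearest genes with a probe on either side of Myh6 and Myh7, in RefSeq's order, were not higher in tumors by 2-fold. Cmtm5, next to Myh6, was well above background only in non-tumor lung. Ngdn, the nearest gene with a probe on the side of Myh7, measured 11727 and 10469 in Nrf2-/- and Nrf2+/+ tumors, against 12721 and 13271 in non-tumor lung, with differences of 0.23 in Nrf2-/- and 0.11 in Nrf2+/+ mice. Most members listed with Myh7 for slow skeletal and ventricular muscle were lower in tumors: of the 6, Csrp3, Myl3, Myoz2 and Tnnc1 were at least 2-fold lower in both genotypes, Myl2 was below background, and Myh7 alone was higher. The list does not mark the fibres of Myh7 alone, since Tnnc1 and Myoz2, for example, are genes of heart and slow muscle.

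Genes of thick filament assembly and the M-band were mixed. Mybpc3, cardiac myosin-binding protein C, measured 219 and 259 in Nrf2-/- and Nrf2+/+ tumors, against 626 and 754 in non-tumor lung, differences of -1.17 and -1.09 in Nrf2-/- and Nrf2+/+ mice. Mybphl, a related protein of atrial muscle, measured 126 in Nrf2-/- tumors and 33.3 in Nrf2+/+ tumors, against 560 and 502 in Nrf2-/- and Nrf2+/+ non-tumor lung. Its tumor difference of -1.81 in Nrf2-/- mice was thus the smaller, with -3.46 in Nrf2+/+ mice. Of the myomesins, which link thick filaments at the M-band, Myom2 measured 366 and 248 in Nrf2-/- and Nrf2+/+ tumors, against 2638 and 1644 in non-tumor lung, and was at least 2-fold lower in both genotypes. Myom1 measured 382 and 277 in Nrf2-/- and Nrf2+/+ tumors, against 423 and 434 in non-tumor lung, differences of 0.20 and -0.19 in Nrf2-/- and Nrf2+/+ mice; both are below the software's median error. Its direction turned in Nrf2+/+ mice under median scaling and in Nrf2-/- mice under spike-in scaling.

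Among the other genes of the Z-disc and of the filaments tied to it, all but Nrap were at least 2-fold lower in tumors of both genotypes. Ankrd1, a cardiac stress-responsive repeat protein that binds titin, measured 820 and 696 in Nrf2-/- and Nrf2+/+ tumors, against 3085 and 2822 in non-tumor lung, a difference of -1.57 in each genotype. Tcap, which caps titin at the Z-disc, measured 304 and 271 in Nrf2-/- and Nrf2+/+ tumors, against 2818 and 2284 in non-tumor lung, differences of -2.87 and -2.62 in Nrf2-/- and Nrf2+/+ mice. Myoz2, a calcineurin-binding protein of heart and slow muscle, was not well above background in either tumor pool, against 367 and 471 in Nrf2-/- and Nrf2+/+ non-tumor lung. It was at least 8.60-fold lower in Nrf2-/- tumors and at least 14.9-fold lower in Nrf2+/+ tumors, the highest bound among the members. Actn2, the alpha-actinin that crosslinks thin filaments, was at least 4.22-fold lower in Nrf2-/- tumors and at least 4.31-fold lower in Nrf2+/+ tumors. Nebl, the cardiac nebulin relative nebulette, differed by -1.61 in Nrf2-/- and -1.78 in Nrf2+/+ mice, and Ldb3, which binds alpha-actinin, by -1.85 and -2.01. Des, the intermediate filament desmin that smooth muscle makes too, measured 847 and 724 in Nrf2-/- and Nrf2+/+ tumors, against 2647 and 2458 in non-tumor lung, a difference of -1.30 in Nrf2-/- and -1.31 in Nrf2+/+ mice. The exception was Nrap, an anchoring protein of myofibril ends, at -1.64 in Nrf2-/- but -0.97 in Nrf2+/+ mice.

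Genes of calcium handling were lower as well. Sln, sarcolipin, a small inhibitor of the calcium pump found in atria, measured 947 in Nrf2-/- tumors and 447 in Nrf2+/+ tumors, against 4952 in Nrf2-/- and 5032 in Nrf2+/+ non-tumor lung. Its difference was -2.04 in Nrf2-/- mice and -3.04 in Nrf2+/+ mice. Pln, phospholamban, the pump inhibitor of ventricle and slow muscle, was not well above background in either tumor pool, against 111 and 124 in Nrf2-/- and Nrf2+/+ non-tumor lung. It was at least 2.97-fold lower in Nrf2-/- and at least 3.93-fold lower in Nrf2+/+ tumors. Ryr2, the cardiac calcium release channel, and its partners Casq2, cardiac calsequestrin, and Trdn, triadin, were likewise well above background in non-tumor lung only. Casq2 was at least 3.35-fold lower in Nrf2-/- tumors and at least 4.35-fold lower in Nrf2+/+ tumors, against 125 and 137 in Nrf2-/- and Nrf2+/+ non-tumor lung. Ryr2 was at least 3.56-fold lower in Nrf2-/- and at least 4.60-fold lower in Nrf2+/+ tumors, and Trdn at least 2.29-fold and at least 2.67-fold lower.

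The oxygen store and the creatine kinases of muscle followed. Mb, myoglobin, measured 371 in Nrf2-/- tumors and 164 in Nrf2+/+ tumors, against 2382 in Nrf2-/- and 1890 in Nrf2+/+ non-tumor lung, differences of -2.34 in Nrf2-/- and -3.07 in Nrf2+/+ mice. Ckmt2, the mitochondrial creatine kinase of sarcomeric muscle, measured 94.9 and 51.2 in Nrf2-/- and Nrf2+/+ tumors, against 800 and 934 in non-tumor lung. Its differences of -2.73 in Nrf2-/- and -3.74 in Nrf2+/+ mice were among the largest of members measured in all pools. Ckm, the cytosolic creatine kinase, was at least 4.77-fold lower in Nrf2-/- tumors and at least 5.78-fold lower in Nrf2+/+ tumors.

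**Figure D2:**
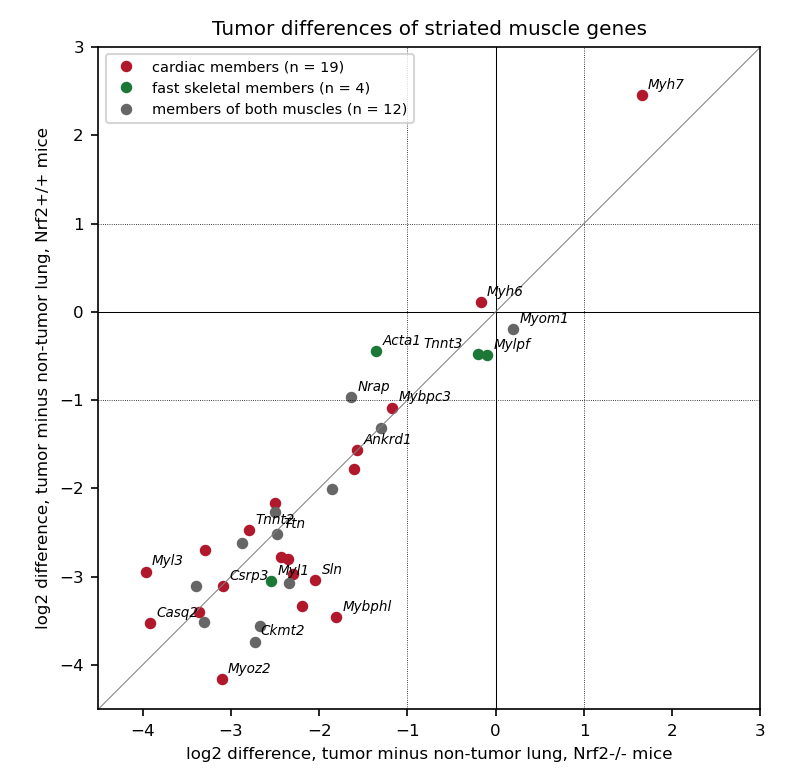
Log2 difference of tumor minus non-tumor lung in Nrf2-/- mice (horizontal) and Nrf2+/+ mice (vertical), 1 point per member, dotted lines at 2-fold and a grey line of equality; for the members not well above background in tumor the point is the measured difference and not the bound. Most cardiac members and members of both muscles gather at the lower left, the cardiac member Myh6, the shared member Myom1 and the fast skeletal members Mylpf and Tnnt3 lie near 0, and Myh7 stands alone at the upper right.

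The median cardiac member was farther from 0 than the median skeletal member. The cardiac group includes genes shared with slow muscle and the skeletal group holds mostly fast muscle genes. The gap therefore does not set heart against skeletal muscle as a whole. A bound is a minimum, and a dim gene for which none could be set was counted as no difference. With dim members set at their bounds, the median difference in Nrf2-/- mice was -2.04 over 19 cardiac members, with 17 at least 2-fold lower, and -0.09 over 4 skeletal members, with 1 lower, Myl1. In Nrf2+/+ mice it was -2.48 over the cardiac members, with 17 lower, and -0.48 over the skeletal members, with 0 lower. The gap between these medians was -1.95 in Nrf2-/- and -1.99 in Nrf2+/+ mice. With the dim readings taken as measured it was -1.57 in Nrf2-/- and -2.31 in Nrf2+/+ mice, so the gap does not show a difference between genotypes. The skeletal medians as measured were -0.78 in Nrf2-/- mice, with 2 of 4 lower, and -0.48 in Nrf2+/+ mice, with 1 of 4 lower. Of the 4 skeletal members, 3 in Nrf2-/- and 2 in Nrf2+/+ mice were dim in tumor, and a dim gene at its bound cannot show more than that minimum. The gap has no test, since 1 pool stands behind each value, and only Mylpf of the skeletal members was well above background on all 4 arrays. The 12 members of both muscles had medians of -2.17 in Nrf2-/- and -2.19 in Nrf2+/+ mice with bounds. Within the cardiac group, the 4 atrial genes Mybphl, Myl4, Myl7 and Sln had medians of -2.20 in Nrf2-/- and -2.92 in Nrf2+/+ mice.

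Several members were read by more than 1 probe, and most of these had the same direction. The probes of Myl4, at -2.26 and -2.35 in Nrf2-/- mice and -2.64 and -2.80 in Nrf2+/+ mice, and of Tnni3, at -2.49 and -2.29 in Nrf2-/- mice and -2.95 and -2.97 in Nrf2+/+ mice, lay close together. The other probe of Myl3 gave only -0.39 in Nrf2-/- and -1.41 in Nrf2+/+ mice, and the 3 probes of Ldb3 ranged between -2.36 and -0.57 in Nrf2-/- and between -3.14 and -0.96 in Nrf2+/+ mice, so the size for these genes depends on the probe. Of the 8 probes of Ttn, 3 stood above background, all of them lower in tumors, and 5 did not on any array. The other probes of Ryr2, Myl1 and Trdn were also below background on every array.

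**Figure D3:**
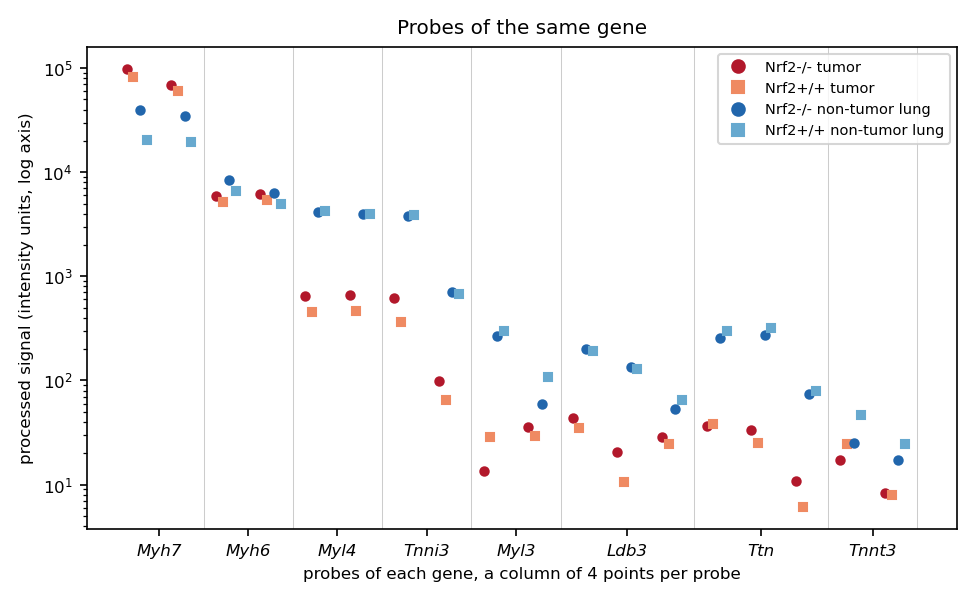
Processed signal (log axis) of every probe well above background on at least 1 array for 8 members with several such probes, a column of 4 points per probe and 1 point per RNA pool. Both Myh7 probes have the tumor pools on top, the Myh6 probes have the pools close together, and the probes of Myl4, Tnni3, Myl3, Ldb3 and Ttn have both non-tumor pools on top.

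Between genotypes few muscle genes were 2-fold apart. In non-tumor lung 1 of 35 members was at least 2-fold higher in Nrf2-/- mice and 0 were lower, against 3.04% and 4.61% of all genes, and the median difference was 0.01. The member was Myl1, at 121 in Nrf2-/- and 61.7 in Nrf2+/+ non-tumor lung, a difference of 1.01, with Myh7 at 1.00 just short of the mark. By less than 2-fold, Nrap at 0.76, Myom2 at 0.72, Acta1 at 0.70 and Myl7 at 0.67 were higher in Nrf2-/- non-tumor lung and Tnnt3, at -0.86, was lower, and this comparison crosses the slides. In tumors, of the 25 members well above background in at least 1 tumor pool, 3 were at least 2-fold higher in Nrf2-/- tumors and 1 was lower, against 4.29% and 3.67% of all genes, with a median of 0.15. Those higher were Mybphl at 1.85, Mb at 1.11 and Sln at 1.01. The lower was Myl3, which was not well above background in Nrf2-/- tumors: its bound was only 1.02-fold and its other probe was at 0.19, so a 2-fold difference was not shown, and 0 of the 23 members measured in both tumor pools were lower. Mybphl and Sln are both atrial genes, and the other 2 atrial members were at 0.44 (Myl4) and 0.08 (Myl7).

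The limma fit called no member for genotype, with a lowest adjusted p of 0.373, and 0.00% of all genes. At an unadjusted p under 0.05 it listed 3 members (Myl1, Myom2 and Tnnt3) and 9.30% of all genes. The tumor difference itself differed by at least 2-fold between genotypes for 2 of the 23 members measured in all pools, Mybphl at 1.66 and Ckmt2 at 1.00 (Nrf2-/- minus Nrf2+/+), against 4.32% of genes. With 1 array per group this difference could not be tested.

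Muscle genes outside the 39 were examined by the same values, on lists chosen with earlier results of these data known. Counting in each genotype the genes above background on either of its 2 arrays, and setting dim genes at their bounds, 6 of 12 other cardiac genes were at least 2-fold lower in Nrf2-/- tumors and 7 of 13 in Nrf2+/+ tumors, with medians of -0.97 and -1.14. Over all genes, with dim readings as measured, 9.13% were lower in Nrf2-/- and 15.3% in Nrf2+/+ tumors, and 5.43% and 8.08% higher. A share of all genes with bounds was not computed. The lower cardiac genes include Hspb7, a small heat shock protein of heart muscle, at -1.84 in Nrf2-/- and -2.01 in Nrf2+/+ mice. Popdc2 differed by -1.45 and -1.53, and Tecrl by -1.36 and -1.14, in the Nrf2-/- and Nrf2+/+ mice. In each genotype a single other gene of this list was at least 2-fold higher, chosen here for its value: Corin, at 38.7 in Nrf2-/- tumors, and Kcnj3, at 43.9 in Nrf2+/+ tumors, each not well above background in the other 3 pools. Bmp10, Ctnna3, Kcnj5 and Lmod2 were below background everywhere.

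Genes used by both muscles were again lower. Of 19 above background, with bounds, 11 were at least 2-fold lower in Nrf2-/- and 13 in Nrf2+/+ tumors and 0 higher, with medians of -1.13 in Nrf2-/- and -1.23 in Nrf2+/+ mice. The shares of all genes that were lower, as measured, were 9.13% in Nrf2-/- and 15.3% in Nrf2+/+ mice. Fabp3, the fatty acid carrier of muscle, measured 959 and 584 in Nrf2-/- and Nrf2+/+ tumors, against 5412 and 5242 in non-tumor lung, differences of -2.15 and -2.71. Pgam2, the muscle phosphoglycerate mutase, differed by -1.96 in Nrf2-/- and -2.83 in Nrf2+/+ mice, Cox8b, the muscle form of a cytochrome oxidase subunit, by -1.56 and -2.46, and Trim54, a sarcomeric ubiquitin ligase, by -1.30 and -2.25. Jph1, Klhl41 and Synpo2l were below background everywhere.

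By median, skeletal muscle genes outside the list lay nearer to 0 than the other cardiac genes and the genes of both muscles. With dim genes at their bounds, 1 of 11 was at least 2-fold lower in Nrf2-/- tumors and 1 of 17 in Nrf2+/+ tumors, Tnnt1 in each case, with medians of -0.04 in Nrf2-/- and -0.34 in Nrf2+/+ mice. As measured, 4 of 11 and 6 of 17 were lower, with medians of -0.15 and -0.66, against 9.13% and 15.3% of all genes. Of these skeletal genes, 4 in Nrf2-/- and 9 in Nrf2+/+ mice were dim on 1 of the arrays compared. For a dim gene a bound can fall short of a 2-fold difference. Myh3, the embryonic myosin heavy chain, chosen here for its value, was the only gene of this list at least 2-fold higher, at 120 in Nrf2+/+ tumors against 44.6 in Nrf2+/+ non-tumor lung, and was not well above background in either Nrf2-/- pool. Tnnt1, the troponin T of slow muscle, stood out at -1.66 in Nrf2-/- and -1.68 in Nrf2+/+ mice, while Tnni2, the troponin I of fast muscle, was at 0.23 and 0.51, Myh8, the perinatal myosin heavy chain, at 0.33 and -0.85, and Atp2a1, the calcium pump of fast muscle, at -0.35 and -0.66. The factors that set skeletal muscle identity, Myf5, Myf6, Myod1, Myog, Pax3 and Pax7, were below background in all 4 pools, as were Mybpc1, Myot and Pvalb. Of the cardiac transcription factors, 2 of 6 were at least 2-fold lower in Nrf2-/- and 2 of 7 in Nrf2+/+ tumors, with bounds. The shares of all genes, as measured, were 9.13% and 15.3%. Tbx5, a T-box factor of heart and lung, was at -1.05 in Nrf2-/- and -1.85 in Nrf2+/+ mice, Mef2a at -0.68 and -1.38, Mef2c at -0.69 and -0.75, and Gata6 at 0.04 and 0.42. Hand2, Isl1, Shox2 and Tbx20 were below background everywhere.

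**Figure D4:**
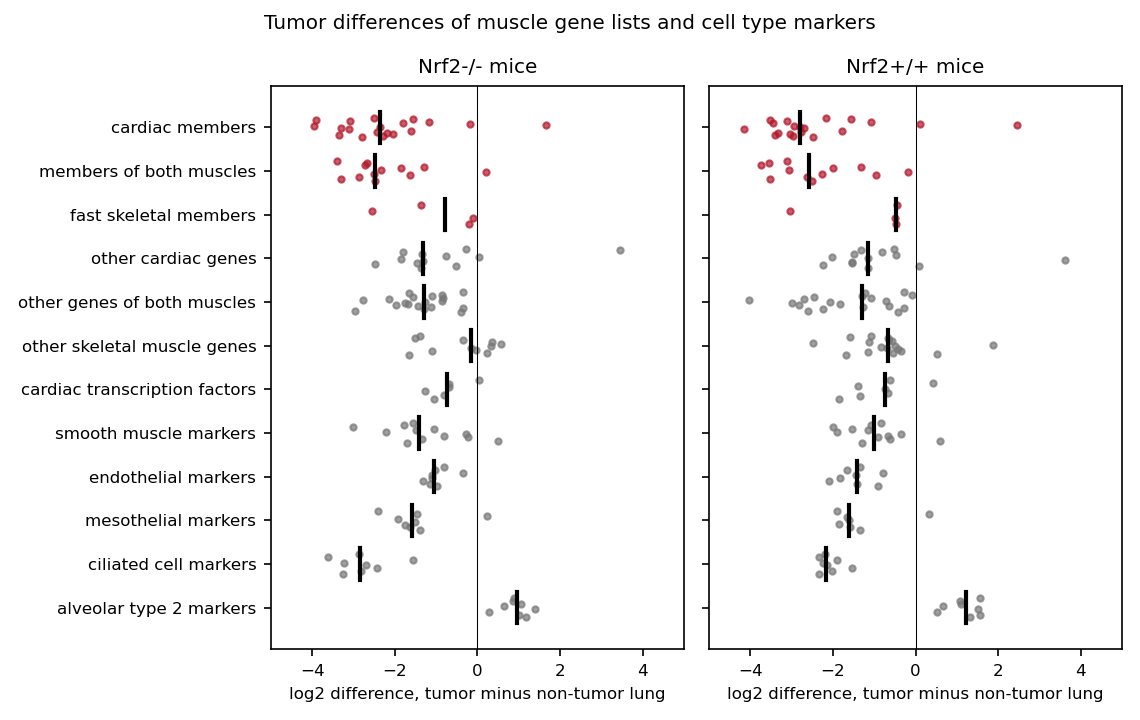
Log2 difference of tumor minus non-tumor lung for each gene above background on either of the arrays compared, by list, in Nrf2-/- mice (left) and Nrf2+/+ mice (right); dim genes are drawn as measured and not at their bounds, black bars are the medians of the points drawn, and red points the members. The cardiac members and the members of both muscles lie lowest among the muscle lists, ciliated cell markers lie lower than these in Nrf2-/- mice and less low in Nrf2+/+ mice, and alveolar type 2 markers lie above 0.

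Markers of other cell types differed between tumor and non-tumor lung alongside the muscle genes. Over all genes, with dim readings as measured, 9.13% were at least 2-fold lower in Nrf2-/- and 15.3% in Nrf2+/+ mice, and 5.43% and 8.08% higher. Of 8 ciliated cell markers all 8 were at least 2-fold lower in each genotype, with medians of -2.84 in Nrf2-/- and -2.16 in Nrf2+/+ mice, and their summed level relative to the 75th percentile was 2.02 and 4.08 in Nrf2-/- and Nrf2+/+ tumors, against 14.5 and 18.0 in non-tumor lung. Of the mesothelial markers 6 of 8 were lower in Nrf2-/- and 6 of 7 in Nrf2+/+ mice with bounds, with medians of -1.49 and -1.62 and summed levels of 39.2 and 29.9 in tumors, against 53.6 and 35.7 in non-tumor lung. A summed level follows the brightest probes of its list and does not stand for each marker. The brightest mesothelial marker was Krt19, named here for its level, at 0.24 in Nrf2-/- and 0.34 in Nrf2+/+ mice, while the others were below 0 as measured. Of 12 smooth muscle markers 8 were lower in Nrf2-/- and 6 in Nrf2+/+ mice, with medians of -1.41 and -0.97 and summed levels of 82.1 and 105 in Nrf2-/- and Nrf2+/+ tumors, against 146 and 152 in non-tumor lung. Ciliated cells line the airways, mesothelium covers the lung surface and smooth muscle wraps airways and vessels. Of 8 endothelial markers 5 were lower in Nrf2-/- and 6 in Nrf2+/+ mice, with medians of -1.06 and -1.42 and summed levels of 129 and 99.7 in Nrf2-/- and Nrf2+/+ tumors, against 251 and 241 in non-tumor lung. Alveolar type 2 markers were higher, 4 of 8 by at least 2-fold in Nrf2-/- and 6 of 8 in Nrf2+/+ mice, with summed levels of 1295 and 1225 in Nrf2-/- and Nrf2+/+ tumors, against 800 and 679 in non-tumor lung. Of 6 adipocyte markers above background, 1 was lower in Nrf2-/- and 4 in Nrf2+/+ mice, with medians of -0.26 and -1.39, and 1 was higher in each, Fabp4 at 1.27 and 1.20. Their summed levels were 22.4 and 13.8 in Nrf2-/- and Nrf2+/+ tumors, against 14.3 and 13.2 in non-tumor lung. Of 6 nerve and Schwann cell markers 2 were lower in each genotype, with medians of -0.51 and -0.67 and summed levels of 44.7 and 38.1 in Nrf2-/- and Nrf2+/+ tumors, against 78.7 and 93.0 in non-tumor lung. The brightest of them was Pmp22, at -0.95 in Nrf2-/- and -1.45 in Nrf2+/+ mice. The part of tissue makeup in the muscle gene differences was not tested.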

How the data were processed

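RNA of each pool (500 ng) was labelled with Cy3, per the labels' protocols, and hybridised to an Agilent mouse array of design 014868. Per the file headers, the deposited intensity values (processed signal, background-subtracted) came from Feature Extraction 10.7.3.1, with annotation on mm9. Each array's log2 signals were set relative to its 75th percentile, spots of a probe were averaged after 238 outlier-flagged spots were dropped, and the probe with the highest mean level stood for its gene. The deposited tables used here carry no gene names, so accessions were matched to RefSeq (GRCm38.p6), which named 26695 of 41174 probes. Genes well above background on at least 1 array (20553) entered limma 3.58.1 (R 4.3.3; lmFit and eBayes, tissue plus genotype), tested on simulated data first; other steps used Python 3.11.15. A bound sets the brighter level against the higher of the dim reading and the lowest level well above background on that array. In counts and medians with bounds, a dim gene for which no bound could be set was counted as no difference. The arrays' number limits the precision. Alternatives were median, quantile and spike-in scaling, normexp background correction (offset 50, on the median spot and background signals, the columns at hand, in place of the planned mean signal), the mean of all probes, and other background filters. Members, lists and tests were chosen with earlier results of these data known. Every member is named; of each other list the 4 genes with the largest mean tumor difference among those above background on all 4 arrays were eligible to be named, plus genes below background everywhere. A few genes of the other lists are not reported here.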

Additional observations from a re-analysis of the deposited data

Results flagged for a closer look

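The tumor difference of Myh6 was -0.17 in Nrf2-/- mice and 0.11 in Nrf2+/+ mice, so its sign differed between the genotypes, by -0.28 (Nrf2-/- minus Nrf2+/+). That of Myom1 was 0.20 in Nrf2-/- mice and -0.19 in Nrf2+/+ mice, a gap of 0.39. Neither difference between genotypes was tested, since each genotype has 1 pool per tissue, and the sign of each turned in a genotype under another scaling or probe rule.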

How the results depend on the processing

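With 1 pool per group, the values carry no spread between mice, and dim genes carry only bounds. The tumor differences kept their direction for 33 to 35 of the 35 members under each scaling, background and probe alternative. The median over members, -2.35 in Nrf2-/- and -2.70 in Nrf2+/+ mice, became -2.63 and -2.94 under spike-in scaling, -1.15 and -1.27 under normexp correction, -2.04 and -2.18 with the mean of all probes, and -2.04 and -2.27 over the 23 members above background on all 4 arrays, of which 19 and 18 were lower; in Nrf2+/+ mice it was -2.40 under median scaling. These scalings shift all genes too: the median of all genes in Nrf2-/- and Nrf2+/+ mice was 0.11 and 0.26 under median scaling and -0.31 and -0.27 under spike-in scaling. Under normexp Acta1 turned to 0.021 in Nrf2-/- mice, and 22 and 21 of 35 members were lower in Nrf2-/- and Nrf2+/+ mice. With dim readings as measured, the gap between cardiac and skeletal medians, -2.31 in Nrf2+/+ mice, became -2.67 (quantile), -1.56 (normexp), -2.04 (mean of probes) and -1.99 (all 4 arrays, 1 skeletal gene); in Nrf2-/- mice, -1.57, it became -1.94 with all 4 arrays and -2.10 with no filter. The tissue term of limma called 0 members here, at a lowest adjusted p of 0.0705, and 0 under quantile normalization and the mean of probes, but 28 under median scaling (27 lower) and under normexp (27 lower), 27 under spike-in scaling, 20 of 23 above background on all 4 arrays (19 lower) and 25 of 37 with no filter, with a lowest adjusted p between 0.002046 and 0.07101 over the alternatives. Over all genes it called 0 higher and 0 lower genes, against 1069 and 1072 under median scaling, 225 and 1107 under spike-in scaling, 1515 and 1673 under normexp, 1772 and 2092 above background on all 4 arrays, and 293 and 476 with no filter. The genotype term called 0 members in every alternative; over all genes it called at most 74 higher and 77 lower. The median tissue coefficient was -2.61 over both genotypes. Slide 2 holds both tissues for Nrf2-/- mice alone, so the value within it is the Nrf2-/- median of -2.35 already given, and no separate check. Members higher in Nrf2-/- non-tumor lung numbered 1, and 2 under median scaling and 0 under spike-in scaling, normexp, the mean of probes and the filter on all 4 arrays. In tumors 3 were higher and 1 lower in Nrf2-/- mice; under normexp 0 and 0, with no filter 5 higher, and with the mean of probes or the filter on all 4 arrays 0 lower. The cause of these shifts was not tested. No paired analysis was possible because each group has 1 array and the groups share no 2 replicate numbers; the limma fit already compares tissues within genotype.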
